A study of Homo sapiens with 12 samples.

Results

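The clustered protocadherins are cell adhesion genes that lie side by side in 3 clusters, alpha, beta and gamma, on the long arm of chromosome 5. They were chosen by symbol as every PCDHA, PCDHB and PCDHG gene of the clusters, which gave 57 of the 55765 gene symbols that were counted. The alpha cluster held 16 members (14 variable and 2 C-type), the beta cluster 19 and the gamma cluster 22 (12 of subfamily A, 7 of subfamily B and 3 C-type). Of the 57 members, 5 are annotated as pseudogenes (PCDHA14, PCDHB17, PCDHB18, PCDHB19P and PCDHGB8P). On hg19, the members span 140165721 to 140892544 on the plus strand of chromosome 5, with alpha at 140165721 to 140391932, beta at 140430959 to 140628933 and gamma at 140710081 to 140892544.

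RNA was sequenced from SH-SY5Y, a neuroblastoma line derived from the bone marrow line SK-N-SH, which takes on a neuron-like form when given all-trans retinoic acid (ATRA). All 12 libraries come from cells that received 10 μM ATRA for 7 days. In the co-treatment experiment, 3 cultures were given H2O2 throughout the 7 days of ATRA and 3 control cultures were given ATRA without H2O2. In the pre-treatment experiment, 3 cultures were given H2O2 for 72 h before ATRA was added and 3 control cultures were not. The H2O2 dose is 10 mM in the deposited description and 10 μM in the study's methods, and no undifferentiated cells were analysed here. Nothing in the sources says that replicates were independent passages, so the p-values measure the spread between these libraries, which may be technical.

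Each neuron transcribes a small and variable choice of these genes, and the encoded proteins bind like proteins on facing membranes, which gives a cell a surface identity used in self-avoidance of its own branches. In the alpha and gamma clusters, each variable or C-type exon has a promoter of its own and is spliced to constant exons shared by the whole cluster, whereas beta genes are single-exon genes that lack constant exons. The variable promoters are chosen with the help of CTCF, cohesin, DNA methylation and distant enhancers, while most C-type genes are transcribed more broadly.

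Many of these promoters carry a short conserved element with the core CGCT, which is shown here because the members differ in its flanking bases. Promoter sequences (250 bases before to 50 after the start) were taken from RefSeq on GRCh38.p14 for the 46 members that have an entry, of which PCDHA3, PCDHA13, PCDHB6, PCDHB11, PCDHGA12, PCDHGC5 and the 5 pseudogenes are not part. The letter string GTCGCT, the string GGCGCT or the string GCCGCT lay on the gene's strand between positions -130 and 10 of the start in 42 of the 46 (91.3%) and in 14.3% of all 35116 promoters of the same length. The strings were picked after the sequences had been read, and all of them contain CGCT, which on both strands is in 70.0% of all promoters. PCDHGB7, the most abundant variable gamma gene, held none of the strings there and is not shown. The following lines give 40 bases around the string, with the string in capitals. They cover abundant variable members of each cluster that hold a string and members described later.
PCDHA4: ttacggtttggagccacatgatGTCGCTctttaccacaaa
PCDHA12: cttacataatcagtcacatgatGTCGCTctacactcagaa
PCDHB14: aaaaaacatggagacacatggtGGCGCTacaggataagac
PCDHB3: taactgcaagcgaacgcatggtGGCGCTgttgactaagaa
PCDHB12: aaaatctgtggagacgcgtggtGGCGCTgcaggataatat
PCDHB1: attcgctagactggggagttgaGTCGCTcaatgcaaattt
PCDHGA7: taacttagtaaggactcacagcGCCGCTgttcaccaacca
PCDHGA9: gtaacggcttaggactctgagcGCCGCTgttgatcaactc
PCDHGC4: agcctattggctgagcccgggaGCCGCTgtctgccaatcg

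Each of these windows matched hg19 once within the 3 clusters, on the plus strand of chromosome 5, at 140186556 to 140186595 (PCDHA4), 140254821 to 140254860 (PCDHA12), 140602827 to 140602866 (PCDHB14), 140479969 to 140480008 (PCDHB3), 140588207 to 140588246 (PCDHB12), 140430851 to 140430890 (PCDHB1), 140762208 to 140762247 (PCDHGA7), 140782273 to 140782312 (PCDHGA9) and 140864511 to 140864550 (PCDHGC4). The string began at a median position of -60 from the start. All 10 alpha variable windows held GTCGCT, 13 of 14 beta windows held GGCGCT and PCDHB1 held GTCGCT. In gamma subfamily A, 6 members held GCCGCT and 5 held GTCGCT, and the 4 windows of subfamily B held GCCGCT. In PCDHA9, PCDHAC2, PCDHGB2 and PCDHGB7 none of the strings lay in that stretch. The GC content of the promoters set the C-type members apart from the others, at 63.0% and 66.0% in alpha and 59.0% and 60.7% in gamma. It was 33.7 to 40.3% for alpha variable and 33.3 to 46.3% for beta promoters. For gamma A it was 32.3 to 44.3% and for gamma B 43.0 to 51.3%. The median over all 35116 promoters was 58.7%, so the C-type promoters lay above it and those of the other classes below it.

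The libraries held 27576276 to 98287391 reads on genes, of which 9859 to 38923 lay on the clustered protocadherins. Levels are given as CPM, read counts brought to a common library size with TMM factors over the 12 libraries. The labelled cell type was checked against its markers. The 9 noradrenergic markers summed to 1396 to 3253 CPM and the 7 neuronal markers to 2468 to 3533 CPM, although TH was under 1 CPM in every library. The 3 blood markers were under 1 CPM in every library. Pre-treatment control replicate 3 stood apart from control replicates 1 and 2. For each read on a gene, 0.200 reads lay outside genes in control replicate 3, while the ratio was 0.800 and 0.830 for the other controls, 0.343 to 0.462 for the 3 treated libraries and 0.263 to 0.429 for the co-treatment libraries. Small structured RNAs took 17.5% of the reads in control replicate 3, against 1.58% and 2.87% in the other controls. They took 13.2 to 15.0% in the treated libraries and 5.04 to 13.0% in the co-treatment libraries. On both measures, control replicate 3 and control replicates 1 and 2 lay outside the co-treatment range, on opposite sides. Which of these controls are unusual cannot be told from the counts. The pre-treatment comparison is therefore given both over 5 libraries, without control replicate 3, and over all 6.

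Transcription of the clusters was broad but uneven. Reads were found for 56 of the 57 members, and PCDHA14, an alpha pseudogene, had none in any library. All 2298 of its exonic bases are shared with another gene, so the absence of counts sets no limit on its level. To compare genes, levels were divided by the exonic bases that a member shares with no other gene. This matters because alpha members share 2298 to 5309 exonic bases with other genes, and most gamma members 2177. On these bases, which include the constant exons, a read cannot be given to 1 gene. How the counting treated such reads is not stated, and reads that fit several near-identical members equally well may be missing from their counts.

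On this scale, the 2 highest members were C-type genes, PCDHGC3 in gamma and PCDHAC2 in alpha. Over the 12 libraries, their means were 13.7 (PCDHGC3) and 10.8 CPM per kilobase (PCDHAC2), and PCDHGB7 had 9.04. PCDHGC3 was highest in 5 libraries and PCDHAC2 in 7. The gap was widest in pre-treatment control replicates 1 and 2, with 29.5 and 30.5 CPM per kilobase for PCDHGC3 and 13.9 and 13.3 for PCDHAC2. In co-treated cells, PCDHGC3 had 10.5 ± 0.472 (SD, n = 3) and PCDHAC2 10.6 ± 0.0955 CPM per kilobase (SD, n = 3). In the separate libraries, PCDHGC3 held rank 1 to 2, PCDHAC2 rank 1 to 5 and PCDHGB7 rank 2 to 7. PCDHB3 (7.82), PCDHB10 (7.56), PCDHGC4 (7.03), PCDHB14 (6.99), PCDHGA7 (6.40) and PCDHAC1 (5.34 CPM per kilobase) followed, and the ranks of these 6 over the libraries overlapped. The third gamma C-type gene, PCDHGC5, had 0.821 CPM per kilobase and held rank 23 to 40. The lowest members were PCDHA10 (0.114) and PCDHB1 (0.0410 CPM per kilobase), which lies at the start of the beta cluster. The order depends on the length used, and the 2 lengths are not alike. Coding length includes shared constant exons in alpha and gamma. In beta it leaves out noncoding exonic bases on which reads count (2394 against 4417 bases in PCDHB14). Per kilobase of longest coding sequence, PCDHB14 moved from rank 7 to rank 2 with 12.9 CPM and PCDHAC2 to rank 3 with 11.8 CPM. PCDHGC3 kept rank 1 with 15.9 CPM. The order of the 56 members was much the same in every library, with a Spearman correlation of 0.902 to 0.986 over the 66 pairs of libraries, a description of libraries that share gene lengths and a cell line.

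**Figure D1:**
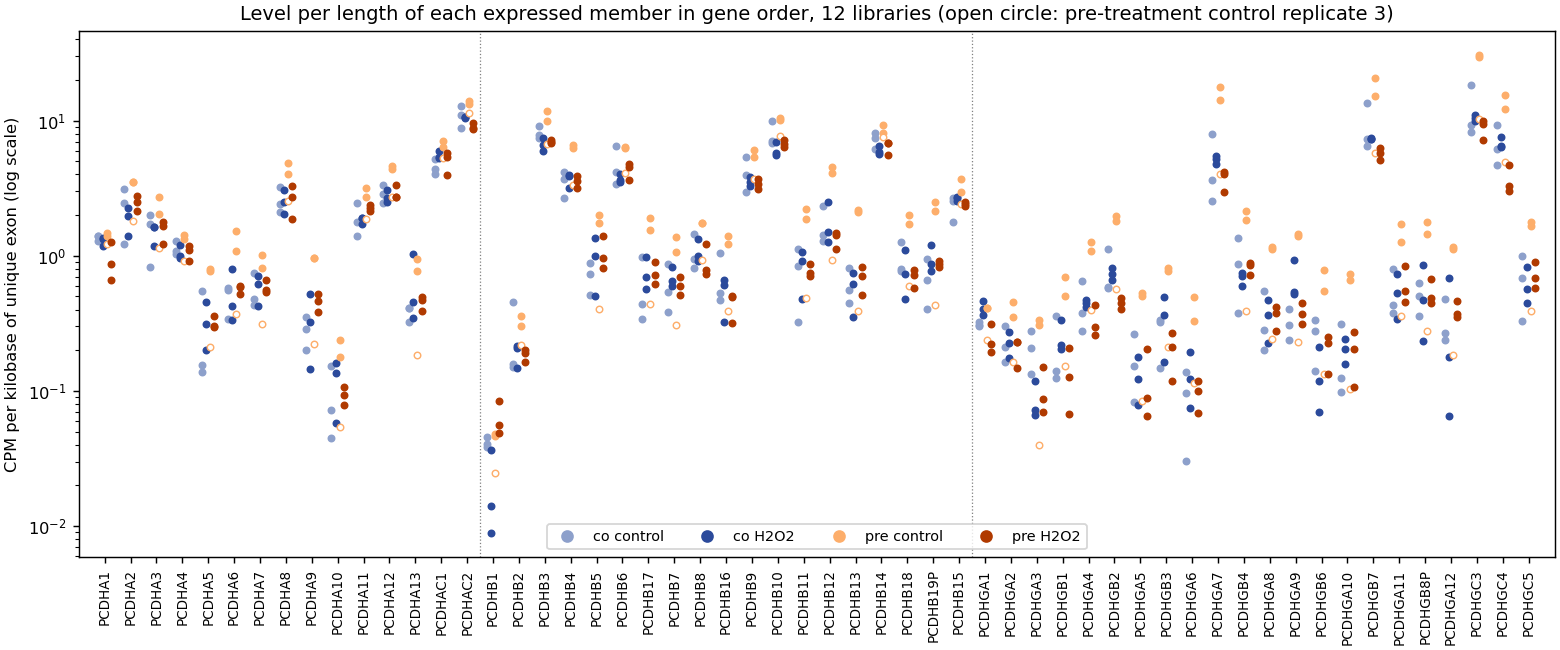
CPM per kilobase of unique exon (log scale) of the 56 expressed members in gene order, with 1 point per library and the open circle for pre-treatment control replicate 3. PCDHGC3, PCDHAC2 and PCDHGB7 sit highest and PCDHB1 lowest, and pre-treatment control replicates 1 and 2 sit above most other libraries across gamma.

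Within each class, reads were concentrated on few members, and most strongly in gamma. PCDHGA7 took 48.1 to 64.3% of the reads on the 12 subfamily A genes and PCDHGB7 took 65.8 to 77.2% of those on subfamily B. Expressed as an effective number of equally used genes (inverse Simpson index), this amounts to 2.34 to 3.83 of 12 in subfamily A and 1.51 to 1.89 of the 6 subfamily B genes that are not pseudogenes. The alpha variable genes were used more evenly, with 7.49 to 9.54 of 13 effective genes. PCDHA4 was the most abundant in 12 of 12 libraries, but with only 15.9 to 25.1% of the alpha variable reads. In the beta cluster, 7.20 to 9.98 of 16 genes were effective, and PCDHB14, PCDHB10 and PCDHB3 were the 3 highest in 12 of 12 libraries with 40.7 to 55.4% of the reads. PCDHA4 has a long annotated exon (10557 unique bases), so its rank per kilobase was 22, and 14 by coding length.

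C-type genes, 5 of the 57 members, took close to 1 in 2 reads of the clusters that hold them. In alpha, PCDHAC1 and PCDHAC2 made up 42.5 to 55.5% of the reads, with a median of 48.5%. In gamma, PCDHGC3, PCDHGC4 and PCDHGC5 made up 45.0 to 53.8%, with a median of 49.1%. The 95% Wilson interval of such a share was at most 1.85 percentage points to either side and covers counting error only. The shares overlapped between treated and control libraries in both experiments and both clusters. In alpha, they were 47.9 to 50.8% in co-treatment controls and 46.9 to 55.3% with H2O2, and 42.5 to 55.5% in pre-treatment controls and 45.0 to 49.1% with H2O2. In gamma, they were 49.2 to 50.9% and 45.0 to 51.5% in the co-treatment experiment, and 46.8 to 53.8% and 46.5 to 48.9% in the pre-treatment experiment. PCDHAC2 took 54.5 to 66.3% of the alpha C-type reads, and PCDHGC3 took 59.2 to 72.3% of the gamma C-type reads.

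**Figure D2:**
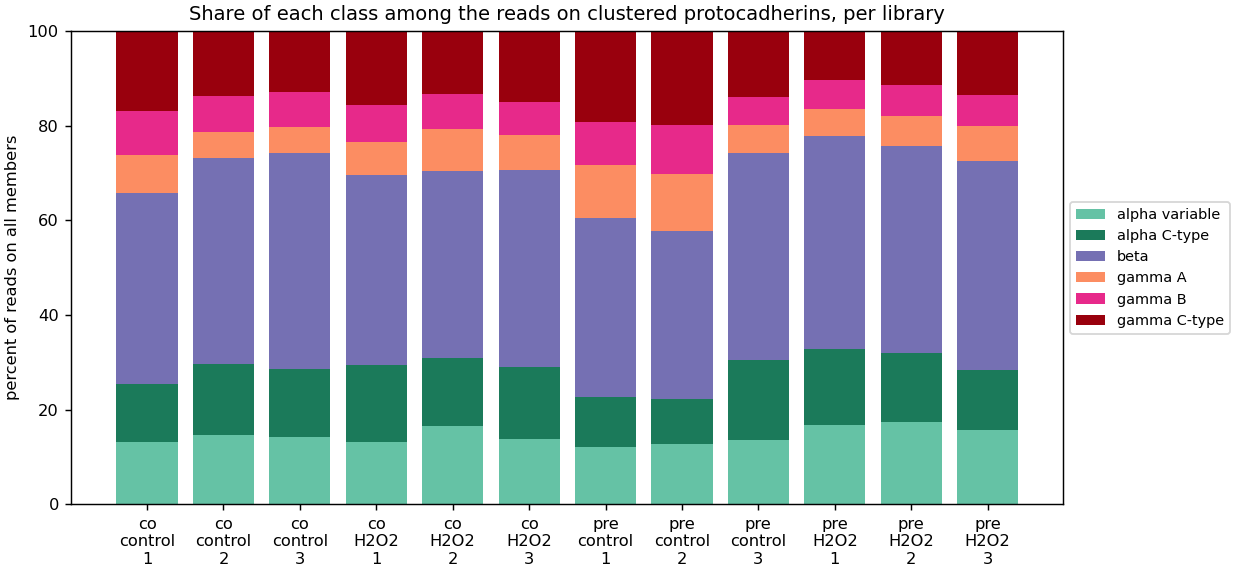
Percent of the reads on all members taken by each class, as 1 stacked bar per library. The 3 gamma classes together reach 39.5 and 42.3% in pre-treatment control replicates 1 and 2 and 22.1 to 34.1% in the other 10 libraries.

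The co-treatment comparison asked whether H2O2 during differentiation alters these genes, and no member was called. The alpha cluster summed to 133, 107 and 90.9 CPM in the controls and to 103, 122 and 112 CPM with H2O2. The beta cluster summed to 213, 157 and 144 CPM in the controls and to 141, 156 and 160 CPM with H2O2. The gamma cluster summed to 180, 96.9 and 81.6 CPM in the controls and to 106, 116 and 113 CPM with H2O2. In each cluster, the treated libraries lay within the range of the controls or overlapped it, and control replicate 1 was the highest of the 6. The log2 ratio of the group means was 0.02 for alpha, -0.17 for beta and -0.10 for gamma. In bulk RNA, fewer cells that transcribe a gene and less RNA per cell cannot be told apart.

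A gene counted as called in the co-treatment experiment when its FDR (edgeR's quasi-likelihood test with Benjamini-Hochberg adjustment over all genes) was under 0.05 and its log2FC beyond 0.6 in either direction. Of the 56 members tested, 0 passed, against 0.598% of all 22089 genes. At an unadjusted p under 0.05 there were 3 members, against 8.15% of all genes. PCDHGA9 was higher, and PCDHB10 and PCDHGA3 were lower, against 4.41% of all genes lower. DESeq2, limma-voom and edgeR's exact test also called 0 members. The members were balanced in sign, with 28 of 56 negative and a median log2FC of 0.01, and the median over all genes was -0.00096. This balance rested on single libraries. Without control replicate 1, 9 of 56 were negative (median 0.29), whereas leaving out control replicate 3 gave 42 negative (-0.12), treated replicate 2 gave 39 (-0.16) and control replicate 2 gave 38 (-0.11).

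Members whose co-treatment groups did not overlap numbered 6. PCDHAC1, PCDHGA1 and PCDHGA9 were higher in every treated library (6.58% of all genes were), and PCDHB1, PCDHB3 and PCDHGA3 were lower in every treated library (7.37% of all genes). PCDHGA9, a gamma A gene at 140782345 to 140892542, had 1.10, 0.832 and 0.643 CPM in the controls and 1.46, 2.54 and 1.42 CPM with H2O2. Its log2FC of 1.07 (SE 0.35) had the smallest p of the members, 0.0098, and an adjusted p of 0.345 in edgeR's quasi-likelihood test. PCDHAC1 had 21.6, 18.3 and 16.8 CPM in the controls and 22.2, 22.0 and 24.6 CPM with H2O2, a log2FC of 0.28 (SE 0.14, adjusted p = 0.661). PCDHGA3 had 0.754, 0.362 and 0.555 CPM in the controls and 0.178, 0.321 and 0.194 CPM with H2O2, and had 272 reads over the 12 libraries. In beta, the smallest p was that of PCDHB10, with 32.7, 23.3 and 22.4 CPM in the controls and 18.3, 19.0 and 22.9 CPM with H2O2, a log2FC of -0.38 (SE 0.17, adjusted p = 0.594).

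**Figure D3:**
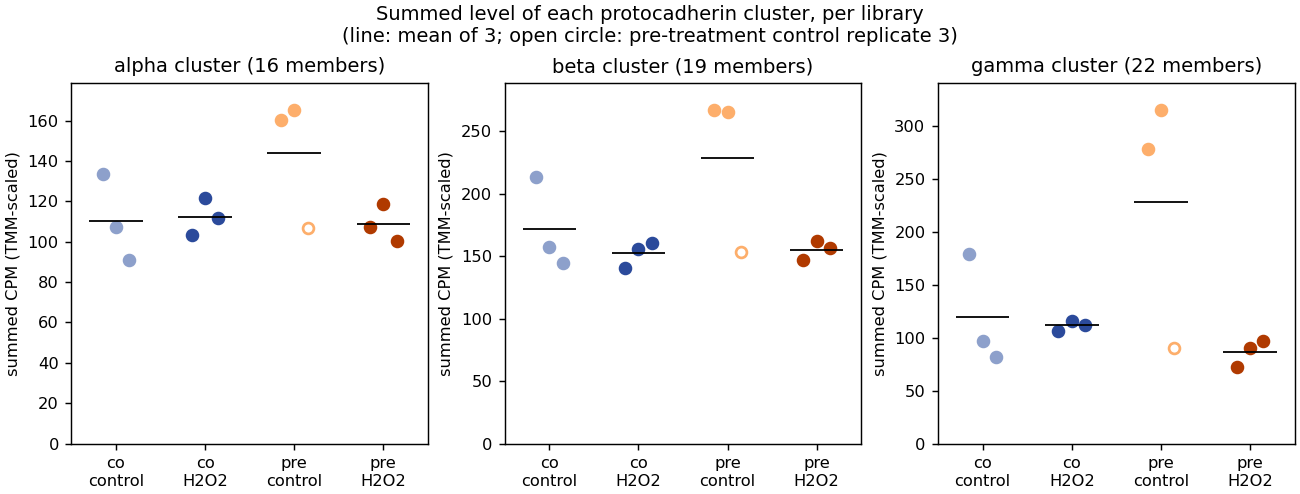
Summed CPM of the alpha, beta and gamma clusters in each library, with the mean of each group as a line and pre-treatment control replicate 3 as an open circle. Control replicates 1 and 2 of the pre-treatment experiment lie above the 3 treated libraries in each cluster (279 and 316 against 72.0 to 97.0 CPM in gamma), while control replicate 3 lies within the range of the treated libraries.

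The pre-treatment comparison asked whether H2O2 before differentiation leaves a difference in these genes after 7 days of ATRA. Over the 5 libraries without control replicate 3, 30 of 56 members were lower with H2O2 and 0 were higher, with most of them in gamma. The gamma cluster summed to 279 and 316 CPM in control replicates 1 and 2 and to 72.0, 90.5 and 97.0 CPM with H2O2, a 3.44-fold difference between the means. The beta cluster summed to 267 and 266 CPM in these controls and to 147, 162 and 157 CPM with H2O2 (1.72-fold), and the alpha cluster to 160 and 165 CPM and to 107, 119 and 100.4 CPM (1.50-fold). In control replicate 3, however, the sums were 90.3 CPM for gamma, 153 CPM for beta and 107 CPM for alpha. That library lay within the treated range in each cluster sum, so the difference is between control replicates 1 and 2 and the other 4 pre-treatment libraries.

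In this experiment, called means an FDR under 0.05 and a log2FC beyond 1 in either direction, and over the 5 libraries 8.31% of the 26161 genes tested were called lower and 2.97% higher. In subfamily B of gamma, 7 of 7 members were called lower, in subfamily A 10 of 12 and among the gamma C-type genes 3 of 3. In beta 7 of 19 members were called lower, among the alpha variable genes 3 of 13 and among the alpha C-type genes 0 of 2. At an FDR below 0.05 with no limit on the log2FC, 40 members were lower, against 13.0% of all genes, and at an unadjusted p under 0.05 there were 50 lower members, against 19.9%. All treated libraries lay below control replicates 1 and 2 for 55 members, against 31.4% of all genes, and above them for 1 member, PCDHB1, against 25.9%. The log2FC was negative for 55 of 56 members with a median of -1.13, and the median over all genes was 0.01. The class medians were -1.69 for gamma A, -1.65 for gamma B, -1.69 for gamma C-type, -0.79 for beta, -0.57 for alpha variable and -0.43 for alpha C-type. All 4 expressed pseudogenes were among those called.

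Over all 6 libraries, 0 of 56 members were called, as were 0.0162% of the 24632 genes tested. At an unadjusted p under 0.05, 16 members were lower (10 gamma, 5 beta and 1 alpha) and 0 higher, against 7.23% of all genes lower. DESeq2 called 5 members lower and edgeR's exact test 3, against 1.27% and 0.426% of all genes. The log2FC was again negative for 55 of 56 members, with a median of -0.76 against -0.01 over all genes. Groups that did not overlap over all 6 libraries were found for 8 members lower with H2O2 (PCDHAC2, PCDHB2, PCDHB9, PCDHB10, PCDHB14, PCDHGB2, PCDHGC3 and PCDHGC4), or 14.3% of 56, against 8.49% of all genes.

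**Figure D4:**
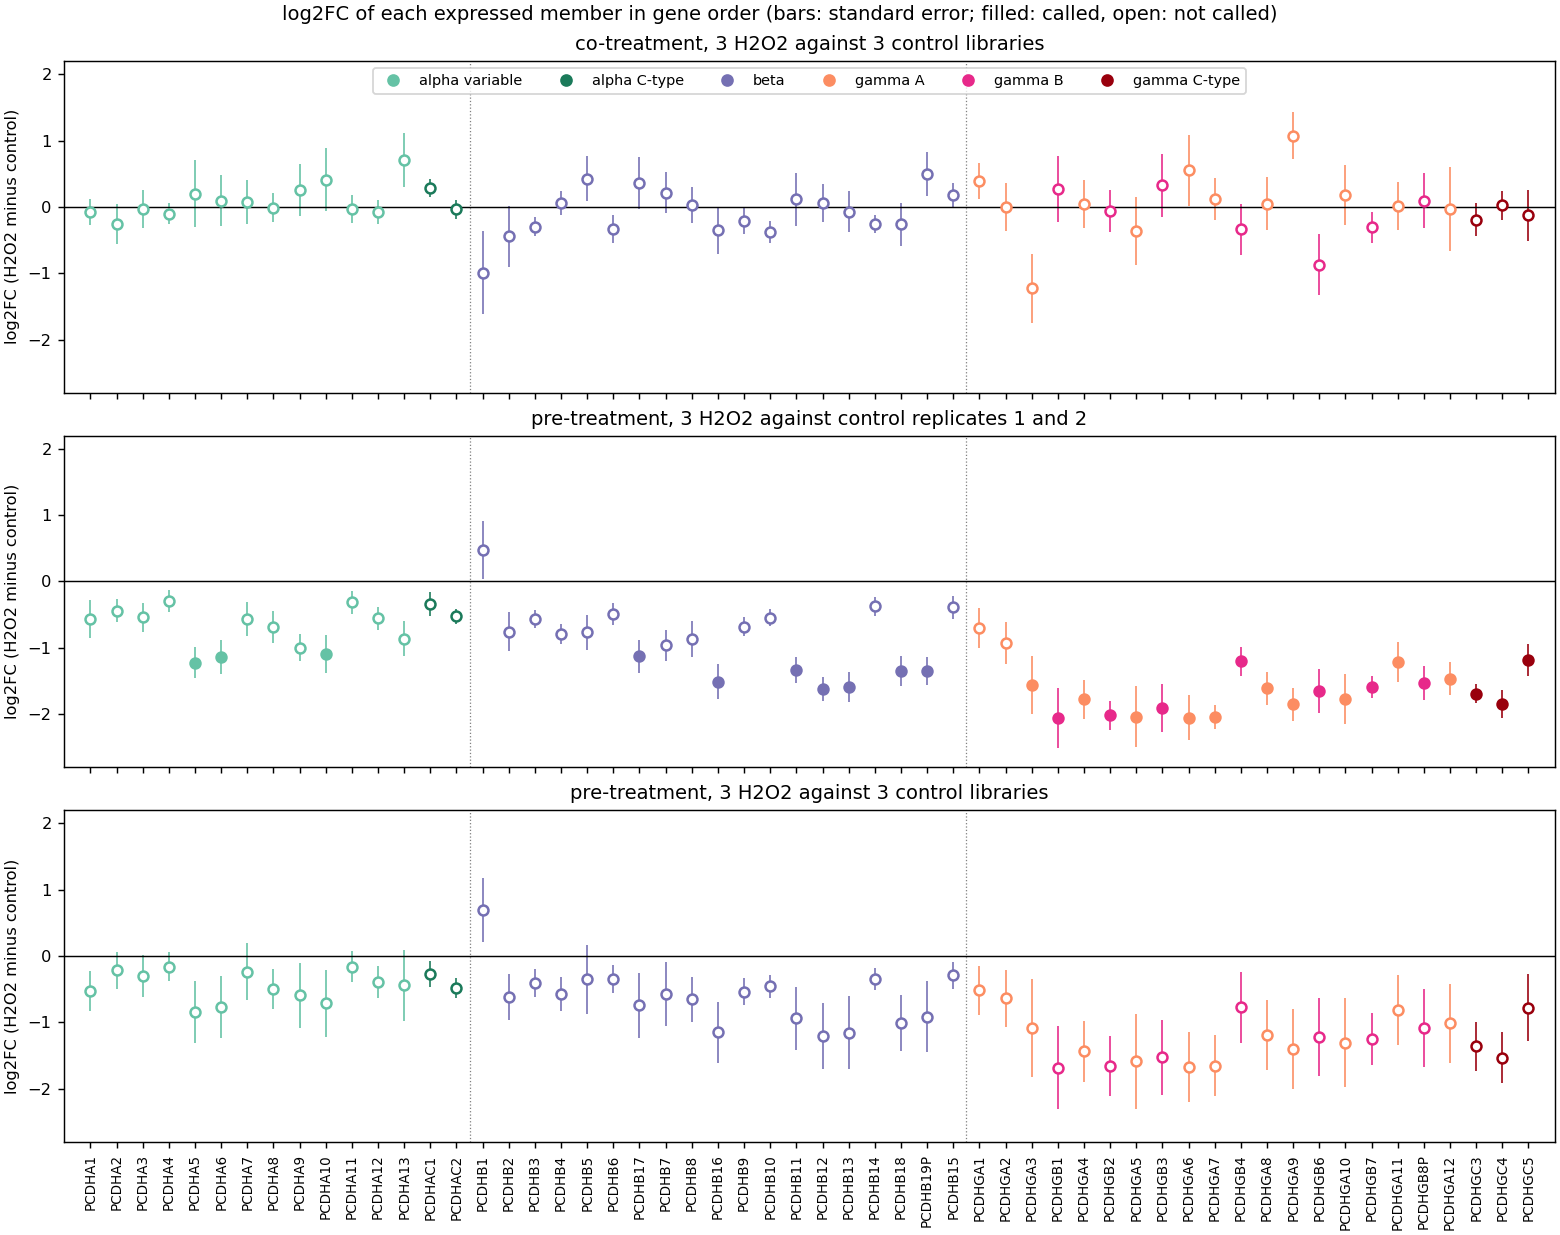
log2FC of each expressed member, H2O2 minus control, with its standard error, in gene order from PCDHA1 to PCDHGC5, for the co-treatment libraries (top), the pre-treatment libraries without control replicate 3 (middle) and all 6 pre-treatment libraries (bottom). Filled points passed the FDR and log2FC limits, which 30 members did in the middle panel and 0 in the others.

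All gamma C-type genes were called over 5 libraries, and PCDHGC3 was the most abundant of the called members. PCDHGC3 (140855514 to 140892544) had 95.8, 99.3 and 33.7 CPM in the 3 controls and 23.4, 30.7 and 32.4 CPM with H2O2. All treated libraries were below all controls, but control replicate 3 was nearer to the treated libraries than to the other controls. Its log2FC was -1.69 (SE 0.15, adjusted p = 0.000902 in edgeR's quasi-likelihood test) over 5 libraries and -1.36 (SE 0.37, adjusted p = 0.319) over 6. PCDHGC4, whose protein needs a partner isoform to reach the cell surface, had 34.1, 43.6 and 13.8 CPM in the controls and 8.46, 9.22 and 13.1 CPM with H2O2. The groups did not overlap, with a log2FC of -1.85 (SE 0.21, adjusted p = 0.00136) over 5 libraries and -1.53 (SE 0.38, adjusted p = 0.319) over 6. PCDHGC5 had 5.06, 4.73 and 1.11 CPM in the controls and 1.65, 2.57 and 1.97 CPM with H2O2, so that control replicate 3 was below all treated libraries. Its log2FC over 5 libraries, -1.18 (SE 0.25), passed the limits. It was -1.12 without control replicate 1 and -1.22 without control replicate 2, where 1 control is left and no call is given.

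The alpha C-type genes differed less. PCDHAC2 (140346055 to 140391932) had 45.9, 43.9 and 37.2 CPM in the controls and 28.7, 31.6 and 28.8 CPM with H2O2, without overlap. Its log2FC was -0.53 (SE 0.12, adjusted p = 0.0153) over 5 libraries, past the FDR but not the log2FC limit, and -0.48 (SE 0.15, adjusted p = 0.323) over 6. PCDHAC1 had 29.2, 26.3 and 22.1 CPM in the controls and 24.0, 22.5 and 16.4 CPM with H2O2, and control replicate 3 lay within the treated range. Its log2FC over 5 libraries was -0.34 (SE 0.18, adjusted p = 0.201). Variable and C-type genes of the same cluster thus had similar ratios when summed, with log2 ratios over 5 libraries of -0.63 (variable) and -0.52 (C-type) in alpha, and -1.88 (A), -1.67 (B) and -1.78 (C-type) in gamma. The sums were not tested.

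**Figure D5:**
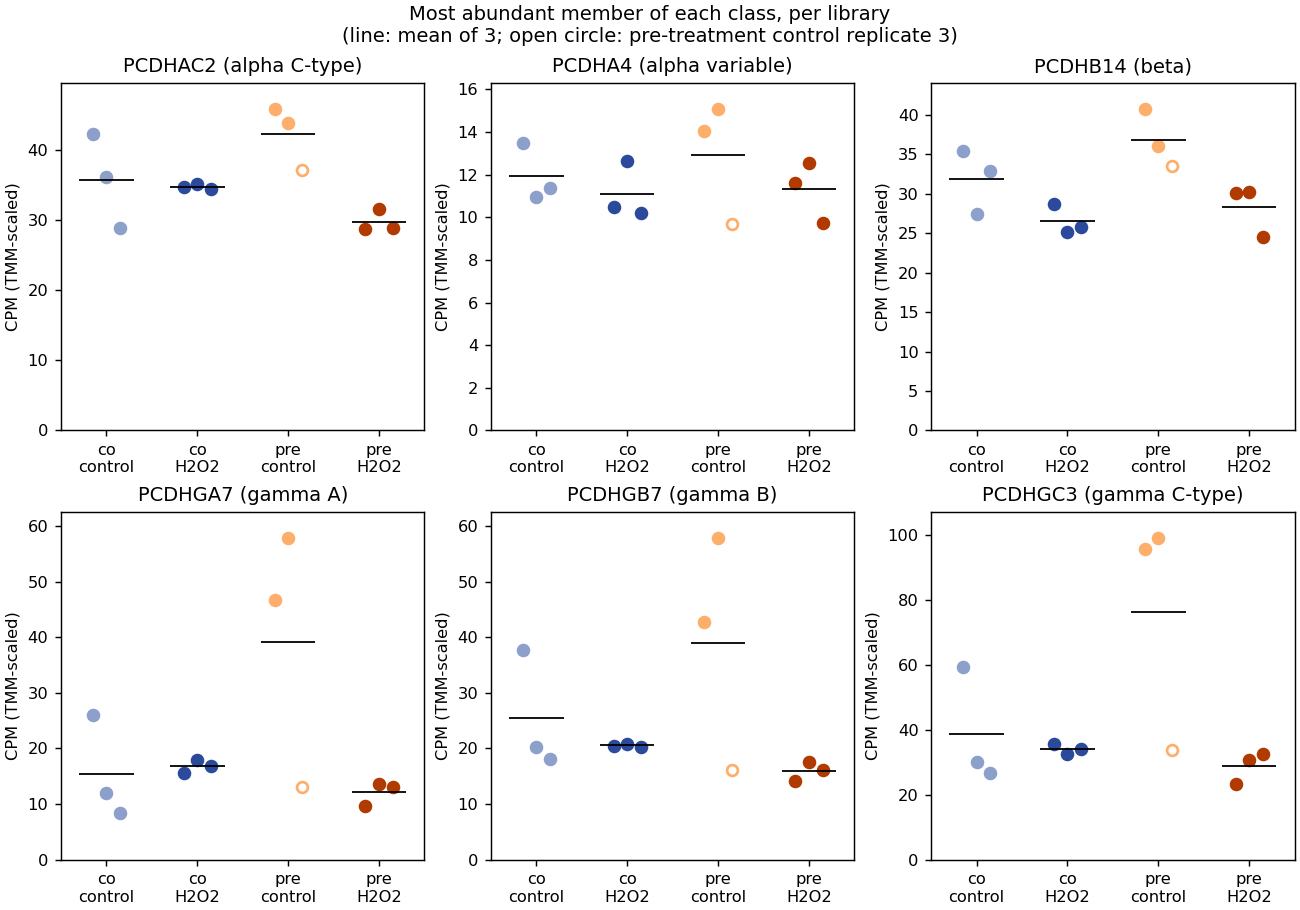
CPM per library of the most abundant member of each class, with the mean of each group as a line and pre-treatment control replicate 3 as an open circle. PCDHGA7, PCDHGB7 and PCDHGC3 stand highest in pre-treatment control replicates 1 and 2, while PCDHA4 and PCDHB14 differ less between these controls and the treated libraries.

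Among the variable gamma genes, the dominant members and most of the rare ones were called. PCDHGA7 (140762306 to 140892542) had 46.7, 57.9 and 13.0 CPM in the controls and 9.68, 13.5 and 13.1 CPM with H2O2. Control replicate 3 lay within the treated range, and the log2FC was -2.05 (SE 0.18, adjusted p = 0.000902) over 5 libraries and -1.66 (SE 0.46, adjusted p = 0.319) over 6. PCDHGB7 (140797212 to 140892542) had 42.7, 57.8 and 16.1 CPM in the controls and 14.2, 17.5 and 16.2 CPM with H2O2, a log2FC of -1.59 (SE 0.16, adjusted p = 0.00107) over 5 libraries. PCDHGB2 had 4.79, 5.17 and 1.49 CPM in the controls and 1.07, 1.28 and 1.18 CPM with H2O2, without overlap even over 6 libraries. Its log2FC was -2.02 (SE 0.22) over 5 libraries and -1.66 (SE 0.45, adjusted p = 0.319) over 6. PCDHGA9 had 3.97, 3.83 and 0.625 CPM in the controls and 0.849, 1.01 and 1.23 CPM with H2O2, so control replicate 3 was the lowest of the 6.

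Other gamma members followed the same order of libraries. PCDHGA8 had 4.90, 4.75 and 1.02 CPM in the 3 controls and 1.17 to 1.76 CPM with H2O2, a log2FC of -1.61 (SE 0.25). PCDHGB4 had a log2FC of -1.20 (SE 0.22) and PCDHGB1 of -2.07 (SE 0.45), both called. With control replicate 1 as the only control, that of PCDHGB1 was -1.82. PCDHGA11 (-1.21, SE 0.30) was called, but not without treated replicate 1 (-1.13) or 2 (-1.03). Its log2FC was -0.96 without control replicate 1 and -1.41 without control replicate 2, where 1 control is left. PCDHGA3 (-1.56, SE 0.44) was called, but not without treated replicate 2 (-1.46). Its log2FC was -1.60 without control replicate 1 and -1.50 without control replicate 2, where again 1 control is left. The gamma members not called were PCDHGA1 (-0.70, SE 0.30) and PCDHGA2 (-0.93, SE 0.31), which are the genes at the upstream end of the cluster.

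In beta, the calls fell on members of lower level. The 3 most abundant beta genes were not called: PCDHB14 had 40.8, 36.0 and 33.6 CPM in the controls and 30.1, 30.2 and 24.6 CPM with H2O2, a log2FC of -0.37 (SE 0.14, adjusted p = 0.0882) over 5 libraries. PCDHB10 (-0.55, SE 0.13) and PCDHB3 (-0.57, SE 0.13) passed the FDR but not the log2FC limit. PCDHB12 (140588269 to 140592143) had 15.9, 17.5 and 3.61 CPM in the controls and 4.34, 5.49 and 5.73 CPM with H2O2, with control replicate 3 below all treated libraries. It was called with a log2FC of -1.62 (SE 0.18, adjusted p = 0.00127) over 5 libraries and not over 6 (-1.21, SE 0.49, adjusted p = 0.419). Its neighbour PCDHB13 had 10.98, 10.8 and 1.98 CPM in the controls and 2.59, 3.57 and 4.18 CPM with H2O2, a log2FC of -1.59 (SE 0.23). PCDHB19P, a pseudogene, had 5.88, 5.08 and 1.02 CPM in the controls and 1.96, 2.06 and 2.15 CPM with H2O2.

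PCDHB1 went the other way. It had 0.381, 0.372 and 0.198 CPM in the pre-treatment controls and 0.445, 0.676 and 0.388 CPM with H2O2, so every treated library was above every control, as for 8.0% of all genes. Its log2FC of 0.70 (SE 0.48) over 6 libraries and 0.48 (SE 0.44) over 5 was the only positive one among the members, and neither was called (adjusted p = 0.614 and 0.444). In the co-treatment experiment it had 0.306, 0.362 and 0.321 CPM in the controls and 0.0711, 0.112 and 0.292 CPM with H2O2, a log2FC of -0.99 (SE 0.62, adjusted p = 0.781). It had 238 reads over the 12 libraries and was the lowest member per kilobase.

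In alpha, the called genes were PCDHA5, PCDHA6 and PCDHA10. PCDHA5 had 3.27, 3.37 and 0.899 CPM in the controls and 1.27, 1.26 and 1.53 CPM with H2O2. Its log2FC was -1.22 (SE 0.23, adjusted p = 0.00835 in edgeR's quasi-likelihood test) over 5 libraries and -0.85 (SE 0.47) over 6. The call was lost with both experiments in 1 fit (-1.28), and the log2FC was -1.19 with control replicate 1 as the only control. PCDHA4 had 14.0, 15.1 and 9.69 CPM in the controls and 11.6, 12.6 and 9.72 CPM with H2O2, a log2FC of -0.30 (SE 0.17, adjusted p = 0.221). PCDHA8 (-0.68, SE 0.24) and PCDHA12 (-0.55, SE 0.17) were not called. The alpha and beta members with a mean of 5 CPM or more had median log2FC values of -0.48 (8 members, 0 called) and -0.56 (8 members, 1 called) over 5 libraries, against -0.997 (7 members, 3 called) and -1.13 (11 members, 6 called) below 5 CPM. In gamma, the medians were -1.77 above (4 members, 4 called) and -1.63 below 5 CPM (18 members, 16 called), so the level made less of a difference there.

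Control replicate 3 was below both other controls for 56 of 56 members. It was below every treated library for 29 members, within the treated range for 19 and above every treated library for 8. These positions were not counted over all genes, so nothing particular to the members can be read from them. Other values moved with the same libraries. The summed level of the 7 neuronal markers was 2468 and 2496 CPM in the first pair of controls and 2900 to 3533 CPM in the other pre-treatment libraries. This followed STMN2, a microtubule regulator (991 and 807 against 1416 to 1611 CPM), while MAP2, a dendritic microtubule protein, went the other way (457 and 472 against 296 to 405 CPM). Of these 7, GAP43 alone was called over 5 libraries (higher).

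Of 8 noradrenergic markers tested, GATA3 and DBH were called lower over 5 libraries. GATA3, a transcription factor of sympathetic neurons, had 100.8, 120.6 and 29.6 CPM in the controls and 24.7, 32.1 and 59.5 CPM with H2O2. DBH, which makes noradrenaline, had 377, 1097 and 354 CPM in the controls and 123, 199 and 315 CPM with H2O2. Over 6 libraries 0 of the 8 were called.

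The 6 mesenchymal markers summed to 328 and 429 CPM in control replicates 1 and 2, 321 CPM in control replicate 3 and 323 to 333 CPM with H2O2, and PRRX1 was under 1 CPM in every library. Of the 5 tested, VIM and CD44 were called higher over 5 libraries. VIM, an intermediate filament gene, had 3.07, 4.05 and 4.997 CPM in the controls and 22.8, 19.4 and 21.7 CPM with H2O2, so that here control replicate 3 lay with the other controls. Its log2FC was 2.65 (SE 0.20) over 5 libraries and 2.42 (SE 0.24, adjusted p = 0.0443 in edgeR's quasi-likelihood test) over 6. After co-treatment, VIM was also called, with 9.85, 5.76 and 6.20 CPM in the controls and 15.5, 15.3 and 17.8 CPM with H2O2 (log2FC 1.16, SE 0.21).

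Of the 2 epithelial markers, EPCAM had 1.22 to 1.61 CPM in all pre-treatment libraries, and KRT18, a keratin, had 0.726, 0.394 and 1.65 CPM in the controls and 9.73, 7.84 and 4.32 CPM with H2O2. Of the 5 glial markers, 0 were called in either experiment. The part of these markers, of the reads outside genes and of the small structured RNAs in the protocadherin result was not tested.

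The 2 responses were compared by testing the difference between the log2FC values (pre-treatment minus co-treatment, edgeR's quasi-likelihood test, called at an FDR below 0.05). Over 11 libraries, without pre-treatment control replicate 3, 13 of 56 members were called, all with the more negative change in pre-treatment, as were 4.7% of the 25668 genes tested. Of these, 9 were gamma, 4 beta and 0 alpha. The difference was -2.98 (SE 0.44, adjusted p = 0.00681) for PCDHGA9, -2.22 (SE 0.44) for PCDHGA7, -2.01 (SE 0.40) for PCDHGB2, -1.93 (SE 0.34) for PCDHGC4 and -1.55 (SE 0.34) for PCDHGC3. In beta, it was -1.73 (SE 0.39) for PCDHB12, -1.90 (SE 0.42) for PCDHB19P and -1.57 (SE 0.42) for PCDHB13. Leaving out pre-treatment control replicate 1 or 2 leaves 1 control in that group, so calls are given for the other fits only. With each other library left out, PCDHGA9, PCDHGC4, PCDHGA7 and PCDHGB2 were called every time. Without pre-treatment control replicate 2, the difference was -1.98 for PCDHGA7 and -1.89 for PCDHGB2. PCDHGC3 (-1.34 and -1.42) and PCDHB12 (-1.57 and -1.62) lost the call without co-treatment control replicate 2 or pre-treated replicate 1. PCDHB19P lost it without pre-treated replicate 1 (-1.86). PCDHB13 lost it in all of these fits (-1.59 to -1.33) but those without co-treatment control replicate 1, co-treated replicate 1 or pre-treated replicate 3. In alpha, the smallest adjusted p was 0.0678, for PCDHA13 with -1.62 (SE 0.52). Over all 12 libraries, 0 members were called (0.0287% of 24407 genes, and 0.0041% with the more negative change in pre-treatment), and 12 had an unadjusted p under 0.05 with the more negative change in pre-treatment, against 5.1% of all genes. DESeq2 and limma-voom also called 0 over 12 libraries.

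Regulators and partners of the clusters were looked at as lists. Of 29 regulators of the promoters (CTCF, cohesin, DNA methylation and silencing factors), 27 were tested, and 0 were called after co-treatment or over the 6 pre-treatment libraries. Over the 5 pre-treatment libraries, 4 were called lower and 0 higher, against 8.31% lower and 2.97% higher of all genes. TET3, an enzyme that oxidises methylated cytosine, had 177, 199 and 55.2 CPM in the controls and 44.8, 57.5 and 71.3 CPM with H2O2, a log2FC of -1.63 (SE 0.18). The log2FC of TET1 was -1.01 (SE 0.13), and -0.94 with control replicate 1 as the only control. TET1 and WIZ (-1.28, SE 0.19) were also among those called, TET1 not without treated replicate 1 or 2. These genes were picked for being lower with H2O2 than in control replicates 1 and 2, so high values in those controls follow from the call. No likeness to the gamma members can be read from this.

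CTCF, which binds the promoters and the enhancers, had 96.9, 101.4 and 109.9 CPM in the controls and 96.8, 86.7 and 101.7 CPM with H2O2, a log2FC of 0.01 (SE 0.12) over 5 libraries and -0.12 (SE 0.13) after co-treatment. SMCHD1, a silencing factor of the clusters, had a log2FC of 0.35 (SE 0.13, adjusted p = 0.0829) over 5 libraries. Of 20 signalling partners, 19 were tested, of which 2 were called lower over 5 libraries, a share near the 8.31% of all genes. NLGN2, which encodes a postsynaptic adhesion protein, had a log2FC of -2.27 (SE 0.21), and the receptor kinase gene RET one of -1.17 (SE 0.31). RET lost its call without treated replicate 3 (-0.91) and with a replicate block (-0.88). Its log2FC was -1.21 without control replicate 1 and -1.11 without control replicate 2, where 1 control is left. In the test of the difference over 11 libraries, BRK1 (0.68, SE 0.17) and CYFIP2 (-1.15, SE 0.24), members of the WAVE complex that binds these protocadherins, were called in opposite directions. BRK1 lost its call without co-treatment control replicate 2 or 3, co-treated replicate 3 or pre-treated replicate 1 or 2. CYFIP2 lost it without co-treatment control replicate 2 (-1.10), and BRK1 also with library size alone as scaling (0.46). Without pre-treatment control replicate 2, which leaves 1 control in that group, the differences were 0.65 (BRK1) and -0.91 (CYFIP2). FYN, a kinase that binds alpha protocadherins, had a log2FC of -0.04 (SE 0.10). Of the 8 neighbouring genes of the clusters, DIAPH1 and SLC25A2 were called lower and ZMAT2 higher over 5 libraries (11.3% of all genes were called in either direction), and 0 after co-treatment or over 6.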

How the data were processed

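Total RNA was depleted of ribosomal RNA with Ribo-Zero and sequenced as stranded libraries. The authors trimmed reads with Cutadapt 2.10, mapped them to hg19 with HISAT2 2.1.0 and counted them per symbol with HTSeq 0.7.2, and the deposited counts are raw, 1 table for each of 12 libraries. The strand setting, the overlap mode and the annotation version are not given in the sources used here. The 2 deposited tables of the authors' comparisons (fold changes, average CPM, p-values) were not used. The 5 closing entries of each table, for reads not counted on a gene, were left out and made up 40.0 to 59.9% of all entries by library.

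The analysis used edgeR 4.0.16, DESeq2 1.42.0 and limma 3.58.1 under R 4.3.3, with TMM scaling. A gene was tested if the CPM equal to 5 counts in the smallest library was met by as many libraries as the smaller group has. log2FC values, standard errors and FDR come from edgeR's quasi-likelihood test on all genes. Positions and unique exonic bases come from GENCODE v44 lifted to hg19. The scripts were tested on simulated data. Replicates differed by more than counting error. The members, lists and alternatives were chosen with earlier results of these data known, so no list was tested as a set. Members were named by a rule: C-type genes, the 3 highest and the lowest of each class, the 8 smallest FDR among called members in each comparison and the smallest p in each cluster, with genes of the lists when called plus CTCF, SMCHD1 and FYN. PCDHA6, PCDHA10, PCDHGA1, PCDHGA2, PCDHGA4, PCDHGA6, PCDHGB3, PCDHB4, PCDHB2, PCDHB9, the neighbouring genes and individual markers of cell types were named after their values were seen. The values of 2 genes of the lists are not reported here.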

Additional observations from a re-analysis of the deposited data

Results flagged for a closer look

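The change differed between the experiments by test (edgeR's quasi-likelihood test of the difference, 11 libraries) for 13 members, which is why they are listed. The differences (pre-treatment minus co-treatment, log2) were -2.98 for PCDHGA9, -2.66 for PCDHGA6, -2.28 for PCDHGB3, -2.22 for PCDHGA7, -2.01 for PCDHGB2, -1.93 for PCDHGC4, -1.87 for PCDHGA4, -1.55 for PCDHGC3 and -1.33 for PCDHGB7 in gamma. They were -1.90 for PCDHB19P, -1.73 for PCDHB12, -1.57 for PCDHB13 and -0.90 for PCDHB4 in beta. All of them were lost when pre-treatment control replicate 3 was included.

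A few members separated treated from control libraries in opposite directions in the 2 experiments. Over 5 pre-treatment libraries, 55 of 56 members were lower in every treated library (31.4% of all genes). A member higher in every co-treated library (6.58% of all genes) was therefore almost bound to be listed here. The share of all genes with opposite directions was not counted. PCDHAC1, PCDHGA1 and PCDHGA9 were higher in every co-treated library and lower in every pre-treated library than control replicates 1 and 2, with pre-treatment log2FC values of -0.34, -0.70 and -1.85 over 5 libraries. PCDHB1 was lower in every co-treated library and higher in every pre-treated library, with pre-treatment log2FC values of 0.48 over 5 and 0.70 over 6 libraries. The difference was called for PCDHGA9 over 11 libraries, and not for PCDHAC1 (adjusted p = 0.0792), PCDHGA1 (0.0770) or PCDHB1 (0.238) in edgeR's quasi-likelihood test.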

How the results depend on the processing

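The number of members called after co-treatment was 0 under every alternative. Over the 6 pre-treatment libraries it was 0, but 3 without a filter on low counts (201 of 41298 genes called lower). It was 5 with DESeq2 (313 of 24632) and 3 with edgeR's exact test (105 of 24632). With each library left out it was 0 to 30, the 30 without control replicate 3 (2173 of 26161). Over 5 libraries it was 30, from 18 (without control replicate 2) to 34 (without treated replicate 3) with each library left out, 36 with scaling by library size alone and 40 with no limit on the log2FC. Scaling by library size alone moved the median of all genes to -0.20 and the sums to -0.73 (alpha) and -0.93 (beta). The difference between the experiments gave 0 members over 12 libraries. In brackets are all genes called with the more negative change in pre-treatment. The difference gave 3 members without a filter (163 of 42536 genes) and 0 to 13 with each library left out. Over 11 libraries it gave 13 (1206 of 25668), 26 without a filter (2200 of 42322) and 22 with DESeq2 (1955 of 25668). With a library left out it gave up to 32, without co-treatment control replicate 1 (2460 of 25515). It gave 5 and 7 when co-treatment control replicates 2 and 3 were left out (317 of 25545 and 583 of 25560). It gave 7 and 8 for co-treated replicates 2 and 3 (750 of 25463 and 477 of 25533), and 4 for pre-treated replicate 1 (421 of 25563). Leaving out pre-treatment control replicate 1 or 2 leaves 1 control in that group, so no count is given. Calls over all genes thus rose and fell as well. The cause of these changes was not tested. By coding length, which is shorter than the unique exonic length in all 16 beta genes that are not pseudogenes, PCDHB3 had 10.98 CPM per kilobase in place of 7.82 and PCDHB14 12.9 in place of 6.99.

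Of 711 alternative values of named genes that were called, 68 lost the call and 0 changed sign, and of 2952 values of those not called, 88 changed sign and 108 gained a call. The 711 and 2952 values include fits that leave 1 pre-treatment control library. With a replicate block, the member counts were 0, 0, 34, 0 and 15 in the order above. Of all genes, 2762 of 26161 were called lower beside the 34. Beside the 15, 1574 of 25668 were called with the more negative change in pre-treatment. The libraries were not treated as paired in the main tests. The residuals of a treated and a control library that share a number had correlations of -0.0785, -0.0786 and -0.0435 in co-treatment. In pre-treatment they were -0.225, 0.0264 and -0.273, and 0.0917 and 0.00287 for numbers 1 and 2 without control replicate 3. With all libraries, no control correlated best with the treated library of its number. Each residual was taken from a mean of at most 3 libraries, so this check cannot exclude a pairing. Low members rest on few reads, and depth limits the precision for PCDHB1 and PCDHGA3.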
